A study of Mus musculus with 6 samples.

Results

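Genes of mRNA decay and deadenylation were compared between control mice and transgenic mice that the series describes as overexpressors of HuD, an RNA-binding protein of neurons that binds AU-rich and poly(A) stretches of mRNAs and stabilises them. The members are all genes of the array whose single annotated symbol names a CCR4-NOT subunit (Cnot), a PAN subunit or Parn, a decapping factor (Dcp1a, Dcp1b, Dcp2, Dcps, Edc3, Edc4), an Lsm protein, Xrn1 or Xrn2, an exosome core or cofactor subunit (Exosc), or a nonsense-mediated decay factor (Upf, Smg). The rule found 110 probe sets of 45037 and 48 genes, each read by its brightest probe set. Of these, 45 genes passed a filter on dim probe sets, and all 45 were among the 14678 genes and unnamed probe sets tested.

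RNA of isolated hippocampal cells was hybridised to 6 arrays. The descriptions call the cells DGCs, read here as granule cells of the dentate gyrus, and assign 3 arrays to 2 control mice and 3 arrays to 2 transgenic mice. In each group mouse 1 has 1 array and mouse 2 has 2 arrays. The titles number the 2 arrays of control mouse 2 as control 1 and control 2, while the descriptions give both to control mouse 2. The descriptions are followed here, and the number of control mice rests on them. First and second array are used below only as names for the arrays of a mouse 2. The titles of the arrays of both mice 1 and of the first array of transgenic mouse 2 carry the tag re-LCM. The labels do not give the promoter or line of the transgene, the strain, the age or the sex. Preservation is the one treatment type named, for all arrays.

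Elavl4, the gene of HuD, was not higher on the arrays labelled transgenic. Its brightest probe set read 122, 92.8 and 63.7 for control (mouse 1, then the first and second array of mouse 2) and 79.4, 93.3 and 60.1 for transgenic in the same order. All 3 Elavl4 probe sets gave lower transgenic means, from -0.73 to -0.15 on the log2 scale, with overlap between the groups. Whether they read the transgene is not known, so they do not check the labels. Transgenic therefore means labelled transgenic throughout, and every direction below rests on the labels. Over the 6 arrays the ratio of the 3′ to the 5′ probe set of Actb, a sign of RNA length, ran from 14.8 to 27.8, with 14.8 to 19.4 on tagged and 22.7 to 27.8 on untagged arrays.

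A eukaryotic mRNA is usually degraded from its ends. Its poly(A) tail is shortened first by the PAN2-PAN3 nuclease and then by CCR4-NOT, which is the larger complex and the one that sequence-specific RNA-binding proteins recruit. The Lsm1 to Lsm7 ring then binds the shortened tail, DCP2 with its activators removes the cap and XRN1 digests the body from the 5′ end, while the exosome digests it from the 3′ end. Nonsense-mediated decay, driven by UPF1, leads transcripts with an early stop codon to the same enzymes.

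The promoters of the members were examined for features that the naming rule did not use. RefSeq promoter windows of GRCm38.p6, from 250 bases before to 50 after each start, were held for 41 of the 48 genes. Lsm1, Lsm4, Lsm12, Cnot7, Dcp2, Exosc4 and Exosc9 had no entry. The core GCGCATG of the factor NRF1, on either strand, stood in 9 of 41 members (22.0%), against 737 of the 9028 named genes tested that have a promoter entry (8.16%) and 1192 of all 27025 genes of the table (4.41%). The 9 were Cnot4, Cnot9, Exosc5, Exosc10, Lsm2, Lsm8, Lsm10, Smg9 and Upf1. The 41 members include Exosc5, Exosc6 and Lsm2, which did not pass the filter that all named genes tested passed. The 2 sets are therefore not alike in this, and Exosc5 and Lsm2 are among the 9. The core CCGGAA of ETS factors was as frequent in the members (13 of 41, 31.7%) as in the named genes tested (30.8%) and stood in 4 of 5 decapping genes and 0 of 7 Lsm genes. The YY1 core AAGATGG stood in 5 of 41 (12.2%), against 8.58% of the named genes tested. No core contains another, and 2 members held both the ETS and the NRF1 core. The windows were rich in CG pairs, with a median of 25 in those of the members, 21 in those of the named genes tested and 7 in the whole table. A match is a description of these letters only and was not tested.

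The 120 bases before the start are shown for 5 members that hold the NRF1 core there, because the members held this core more often than the named genes tested did. Capitals mark the core, which is written CATGCGC where it lies on the other strand. All are on the plus strand of GRCm38.p6.
Cnot9, chr1:74505940-74506059: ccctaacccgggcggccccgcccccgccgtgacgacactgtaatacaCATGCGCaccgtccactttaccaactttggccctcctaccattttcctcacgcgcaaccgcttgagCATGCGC
Exosc10, chr4:148558299-148558418: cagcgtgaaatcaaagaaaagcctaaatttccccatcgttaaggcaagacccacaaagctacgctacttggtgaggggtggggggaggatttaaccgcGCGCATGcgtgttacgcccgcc
Lsm10, chr4:126096533-126096652: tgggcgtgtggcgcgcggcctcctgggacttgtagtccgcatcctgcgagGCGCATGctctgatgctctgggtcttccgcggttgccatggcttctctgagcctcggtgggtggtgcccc
Lsm2, chr17:34981734-34981853: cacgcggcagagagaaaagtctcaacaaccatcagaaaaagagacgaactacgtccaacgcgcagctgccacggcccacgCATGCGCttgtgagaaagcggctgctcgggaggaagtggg
Lsm8, chr6:18848515-18848634: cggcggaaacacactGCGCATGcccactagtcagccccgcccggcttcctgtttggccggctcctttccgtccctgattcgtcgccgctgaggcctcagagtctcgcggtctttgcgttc
Cnot9 carries the core in 2 copies, which begin 73 and 7 bases before the start. The single core begins 105 bases before it in Lsm8, 70 in Lsm10, 40 in Lsm2 and 22 in Exosc10. Exosc5, not shown, also holds the core in this stretch, where it begins 8 bases before the start. The position thus differed between most of these members but was close for Exosc5 and the second copy of Cnot9.

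No gene of the decay machinery was called as different between the groups. With limma, 0 of the 45 tested members were called at an adjusted p under 0.05, as were 0% of all genes tested (every member's adjusted p = 0.999). At an unadjusted p under 0.05 stood 2 members (Pan2 and Exosc4, 4.44%), a share near the 4.31% of all genes. Of the 45, 24 had a higher mean in transgenic mice (53.3%, against 50.5% of all genes) and 21 a lower one. Their median log2 difference, transgenic minus control, was 0.02, beside 0.0026 over all genes tested.

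The size of change that the data leave room for was also limited for most members. The 95% interval of the difference lay within 1 log2 unit of 0, a 2-fold change either way, for 39 of 45 members (86.7%), against 77% of all genes. The exceptions were Pan2, Exosc4, Exosc3, Cnot11, Dcps and Lsm10, all with intervals that reached past 1 on the higher side. For the 23 members with an intensity of at least 200 on every array, differences ran from -0.29 to 0.23 and no interval reached beyond 0.85 in either direction. For 27 of the 45 the difference between the groups was smaller than that between the 2 control mice (60%, against 61.1% of all genes). This count does not bear on the size of change, because a mean of 2 mice varies less than 1 mouse. The plot of differences shows the 95% intervals by role.

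**Figure D1:**
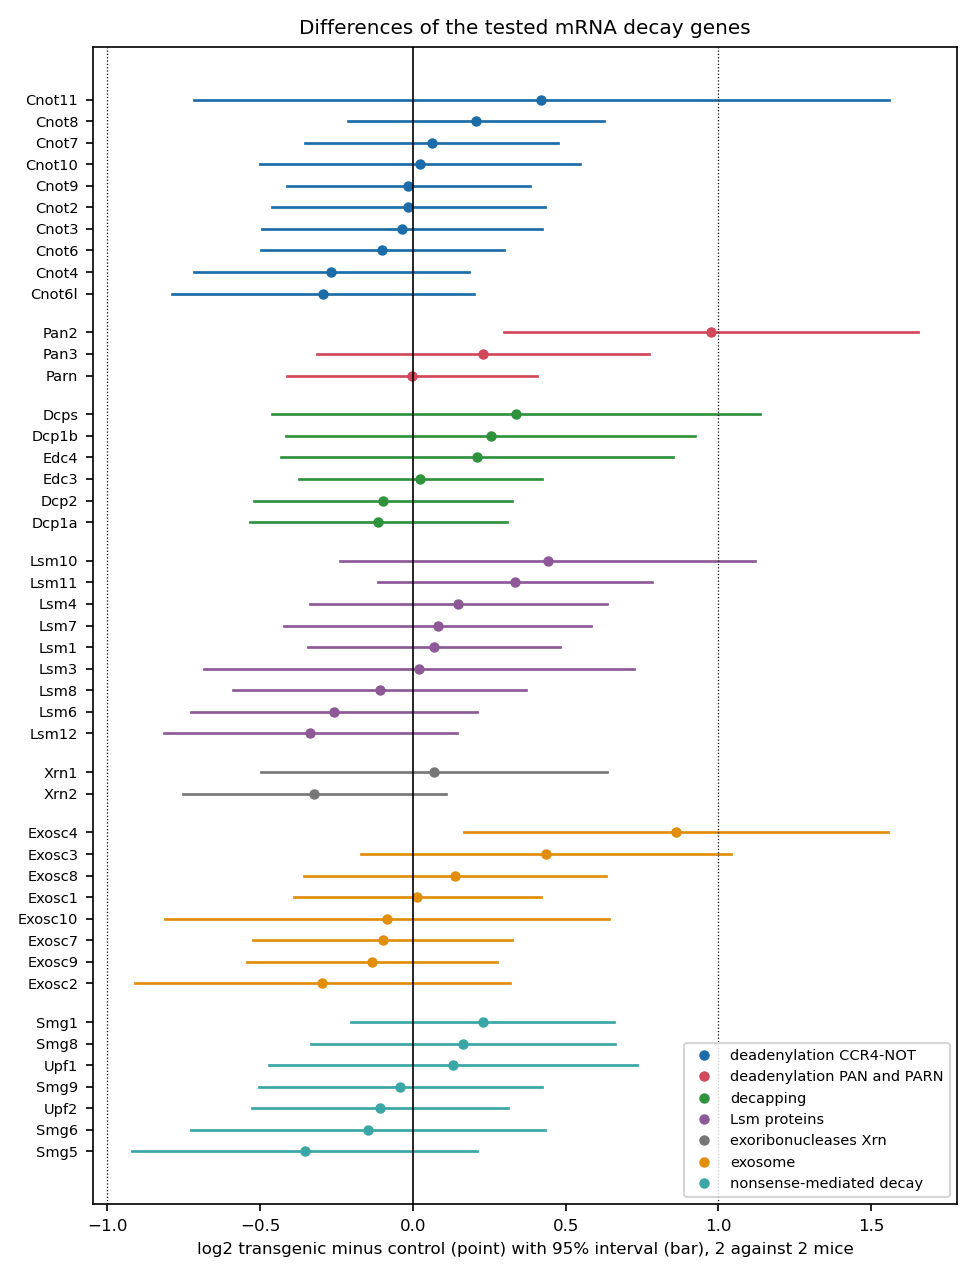
Log2 difference between transgenic and control mice (x axis) for the 45 tested mRNA decay genes (y axis), coloured by role; points are differences of the means of 2 mice per group, bars are 95% intervals of the limma fit, and dotted lines mark 1 log2 unit. All intervals but those of Pan2 and Exosc4 include 0.

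The deadenylases come first in the pathway, and 1 of them had the largest difference of all members. Pan2, the catalytic subunit of the PAN nuclease, read 54.9, 56.5 and 22.4 on the control and 91.8, 71.3 and 94.7 on the transgenic arrays, ordered as for Elavl4. All transgenic arrays were above all control arrays, and the second array of control mouse 2 was far below the others. The means were 5.47 ± 0.44 in control and 6.44 ± 0.11 in transgenic mice (log2, SD, n = 2), a 1.97-fold ratio (log2 difference 0.98, SE 0.26). This did not pass after adjustment over all genes (limma, unadjusted p = 0.0145, adjusted p = 0.999). The difference was 0.64 without the second array of control mouse 2, 0.56 among re-LCM arrays and 1.41 among the others. Pan2 has 1 probe set on the array, so no second reading was at hand.

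Pan3, the adaptor that brings PAN2 to the poly(A)-binding protein, did not repeat that pattern. Its brightest probe set read 1846, 1200 and 2038 on the control and 2265, 1325 and 2327 on the transgenic arrays. The first array of mouse 2 was the lowest in both groups, and the groups overlapped (0.23, SE 0.21). The other Pan3 probe sets above the filter gave 0.21 and -0.50, so the direction differed between probe sets. Parn, a poly(A)-specific nuclease of mainly nuclear RNAs, had a difference of -0.0036 (SE 0.16), with intensities from 208 to 282. Its second probe set was also lower (-0.21).

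Of the 10 CCR4-NOT genes 4 had a higher and 6 a lower mean, with a median of -0.02, and by the brightest probe set the groups overlapped for every one of them. The nuclease subunits come in paralogous pairs. Cnot6, of the CCR4 type, read 1505, 1484 and 1641 on the control and 1425, 1258 and 1639 on the transgenic arrays (-0.10, SE 0.15). Its paralog Cnot6l read 775, 530 and 711 on the control and 545, 581 and 582 on the transgenic arrays (-0.29, SE 0.19). The transgenic arrays of Cnot6l lay close together between the control arrays, of which mouse 1 and the second array of mouse 2 were higher. Of its other 3 probe sets, 2 were also lower (-0.21 and -0.40), and 1 was higher without overlap (0.21).

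Cnot7, of the CAF1 type, read 2877, 2703 and 2839 on the control and 3094, 2963 and 2655 on the transgenic arrays (0.06, SE 0.16). Its paralog Cnot8 read 284, 265 and 372 on the control and 354, 292 and 386 on the transgenic arrays (0.21, SE 0.16). Neither paralog stood apart between the groups, and the second, dimmer Cnot8 probe set gave -0.47.

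Among the other subunits, Cnot4, a ubiquitin ligase attached to the complex, had the lowest unadjusted p after Cnot6l, with 526, 364 and 607 on the control and 387, 432 and 453 on the transgenic arrays (-0.27, SE 0.17). All 5 of its probe sets gave lower transgenic means, from -0.46 to -0.14. These probe sets read the same RNA and are not independent replicates. Cnot2 read 4031, 4814 and 4720 on the control and 4414, 4280 and 4244 on the transgenic arrays, and its 4 probe sets above the filter gave -0.20 to 0.15. Cnot2 (-0.02, SE 0.17), Cnot3 (-0.04, SE 0.17), the RNA-recruiting Cnot9 (-0.01, SE 0.15) and Cnot10 (0.02, SE 0.20) lay within 1 standard error of 0. Cnot11 was the least certain (0.42, SE 0.43), with 38.6 on the first array of control mouse 2 and 85.2 to 163 elsewhere, and its second probe set gave -0.10.

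**Figure D2:**
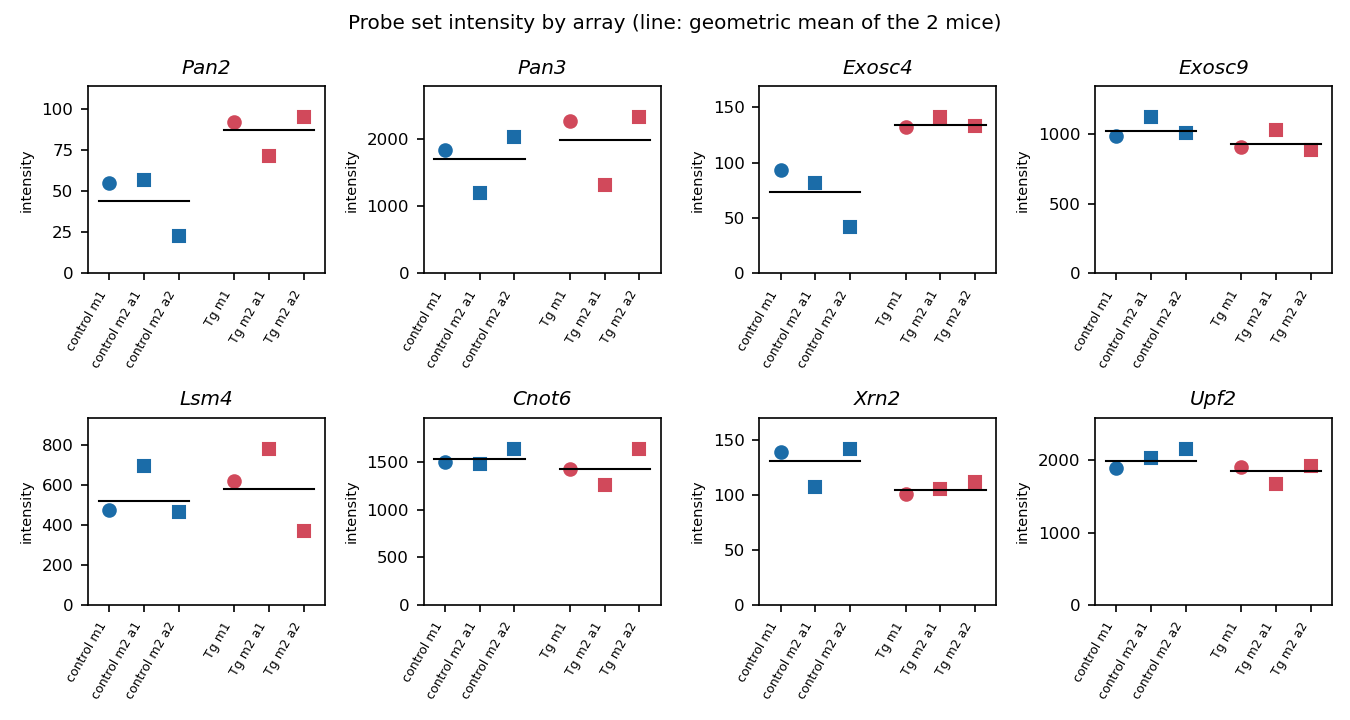
Probe set intensity (y axis, linear, from 0) on each array (x axis) for 8 decay genes; blue is control and red is transgenic (Tg), circles are mouse 1 (m1) and squares the 2 arrays (a1, a2) of mouse 2 (m2), and lines are geometric means of the 2 mice. Pan2 and Exosc4 show no overlap between the groups, while the arrays of Pan3, Exosc9, Lsm4, Cnot6, Xrn2 and Upf2 overlap.

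By the brightest probe set decapping genes overlapped between the groups, with 4 of 6 higher and a median of 0.12. Dim probe sets under the filter did not overlap for Dcps (-1.10) and Dcp1a (0.62), each opposite in direction to the brightest one. Dcp2, the decapping enzyme, read 1435, 1286 and 1430 on the control and 1379, 1092 and 1397 on the transgenic arrays (-0.10, SE 0.16). The lowest array was a transgenic one. Its coactivators were the dim paralogs Dcp1a (-0.11, SE 0.16) and Dcp1b (0.25, SE 0.26), the scaffold Edc4 (0.21, SE 0.25) and Edc3 (0.02, SE 0.15). Edc3 varied least of the 6, from 681 to 726. Dcp1b read 60.5, 73.4 and 116 on the control and 94.9, 83.4 and 83.6 on the transgenic arrays, so the transgenic values lay inside the control range. Edc4 read 330, 454 and 426 on the control and 380, 552 and 471 on the transgenic arrays, lowest for mouse 1 in both groups. Dcps, which clears cap fragments left by the exosome, had a difference of 0.34 (SE 0.30), with 123 on the array of transgenic mouse 1 against 66.7 to 88.3 on the others.

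The Lsm genes encode small ring-forming proteins. Lsm1 is the subunit of the cytoplasmic ring of decay and Lsm8 that of the nuclear ring of splicing, which otherwise share their subunits. Lsm1 read 260, 248 and 277 on the control and 261, 295 and 279 on the transgenic arrays (0.07, SE 0.16). Lsm8 read 993, 1342 and 1143 on the control and 1026, 954 and 1114 on the transgenic arrays (-0.11, SE 0.18). Both ring-specific subunits thus overlapped between the groups. Of the 9 tested Lsm genes 6 had a higher and 3 a lower mean (median 0.07).

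The smallest unadjusted p in the family belonged to Lsm11, Lsm12 and Lsm10, which are not parts of the decay ring. Lsm10 and Lsm11 belong to the U7 particle that cuts histone mRNAs. Lsm11 read 41.4, 40.7 and 32.5 on the control and 51.9, 40.7 and 52.2 on the transgenic arrays (0.33, SE 0.17). Lsm10 read 63.4, 147 and 61.4 on the control and 116, 97.1 and 94.6 on the transgenic arrays (0.44, SE 0.26). The first array of control mouse 2 was the highest of all for Lsm10, so its groups overlapped. Lsm12 read 58.2, 89.9 and 40.4 on the control and 52.3, 40.9 and 43.2 on the transgenic arrays (-0.34, SE 0.18), and -0.05 without the first array of control mouse 2. Its second probe set gave -0.68. Lsm2 was dim, at the floor of the analysis (an intensity of 10.1) on all 6 arrays, and was not tested.

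Lsm3, Lsm4, Lsm6 and Lsm7, subunits of both rings, varied between arrays more than between groups. Lsm4 read 476, 694 and 464 on the control and 621, 780 and 367 on the transgenic arrays (0.15, SE 0.19). Lsm3 read 785, 883 and 679 on the control and 624, 1276 and 788 on the transgenic arrays (0.02, SE 0.27). Lsm6 read 213, 241 and 162 on the control and 156, 262 and 136 on the transgenic arrays (-0.26, SE 0.18). In each of these and in Lsm7 (0.08, SE 0.19) the 2 highest arrays were the first arrays of both mice 2.

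That pattern held for 4 of 9 Lsm genes, 3 of 8 exosome genes (Exosc1, Exosc9 and Exosc10) and Smg9, 8 of 45 members in all (17.8%), against 11.8% of all genes tested. Between the 2 arrays of control mouse 2 the log2 gap was 0.58 for Lsm4, 0.57 for Lsm6 and 0.38 for Lsm3, and between those of transgenic mouse 2 it was 1.09, 0.95 and 0.70. These gaps between arrays of 1 mouse, as the descriptions assign them, exceed the difference between the groups for each of the 3 genes. The reverse order, with both second arrays the highest, was seen for Cnot6, Cnot8 and Smg1 (6.67% of members, against 10.4% of all genes). The patterns were picked after the values were seen.

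The mean level of the Lsm genes had the same order of arrays as that of ribosomal protein genes on both mice 2. Relative to the mean of the 6 arrays, the 9 Lsm genes stood at 0.28 on the first and -0.22 on the second array of control mouse 2, and at 0.17 and -0.11 on those of transgenic mouse 2. The 40 ribosomal protein genes stood at 0.18, -0.15, 0.17 and -0.13 on the same arrays, and 62 genes of oxidative phosphorylation at 0.12, -0.17, 0.22 and -0.15. CCR4-NOT genes did not share this order, at -0.23, 0.11, -0.04 and 0.04. The Actb ratio named above was 22.7 and 24.2 on the arrays of control mouse 2 and 19.4 and 27.8 on those of transgenic mouse 2. The same ratio for Gapdh was 8.40 and 7.87 on the former and 6.46 and 8.63 on the latter, so Actb and Gapdh gave opposite orders on control mouse 2. The part of RNA length in the pattern was not tested.

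**Figure D3:**
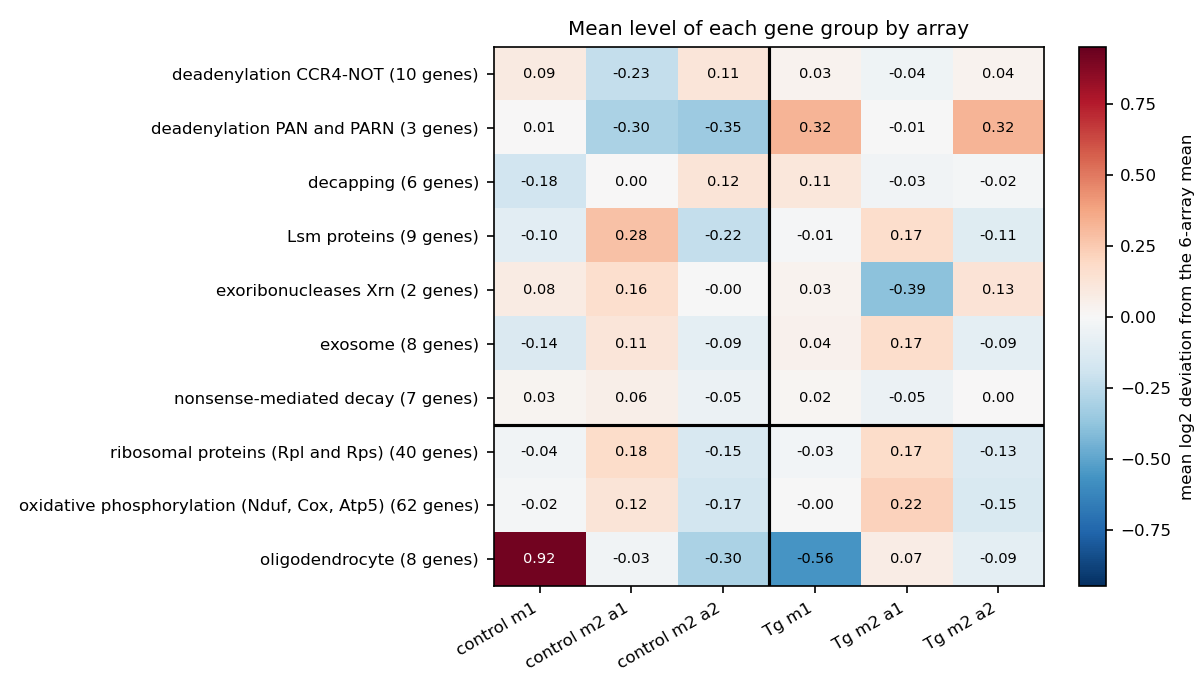
Mean log2 deviation from the mean of the 6 arrays (colour and printed values) for the 7 role groups of decay genes, 2 reference classes and oligodendrocyte markers (rows) on each array (columns; m1 and m2 are mice, a1 and a2 the arrays of mouse 2). Lsm, exosome, ribosomal protein and oxidative phosphorylation genes are all above 0 on the first and below 0 on the second array of both mice 2.

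Of the 2 exonucleases that digest decapped RNA, Xrn1 acts in the cytoplasm and Xrn2 in the nucleus. Xrn1 read 68.1, 98.8 and 59.8 on the control and 88.5, 46.8 and 90.8 on the transgenic arrays (0.07, SE 0.22), with wide overlap. Xrn2 read 139, 108 and 142 on the control and 101, 106 and 112 on the transgenic arrays (-0.32, SE 0.16). Its transgenic arrays overlapped only the first array of control mouse 2. All 3 Xrn2 probe sets gave nearly the same difference, between -0.33 and -0.32, again from the same RNA. The arrays of the dimmest one did not agree (SE 0.67). This probe set read 48.9, 37.3 and 61.9 on the control and 65.8, 34.8 and 14.6 on the transgenic arrays. Transgenic mouse 1 was its highest and the second array of transgenic mouse 2 its lowest. Xrn2 did not pass the limma test (unadjusted p = 0.111, adjusted p = 0.999).

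In the exosome, Exosc4, a subunit of its ring, was the second member without overlap. It read 93.4, 81.9 and 42.1 on the control and 132, 141 and 133 on the transgenic arrays. The transgenic arrays were close together and the second array of control mouse 2 was again the lowest. The means were 6.21 ± 0.47 and 7.07 ± 0.04 (log2, SD, n = 2), a 1.82-fold ratio (0.86, SE 0.27), which did not pass (limma, unadjusted p = 0.0249, adjusted p = 0.999). A second Exosc4 probe set of nearly the same brightness gave -0.09, and the mean of both gave 0.39. Without the second array of control mouse 2 the difference was 0.62, and without control mouse 2 it was 0.53.

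By the brightest probe set the other exosome genes overlapped between the groups. A second Exosc2 probe set, under the filter and near or under the floor on the transgenic arrays, did not overlap (-1.12). Exosc9, a ring subunit, read 985, 1120 and 1007 on the control and 909, 1027 and 887 on the transgenic arrays (-0.13, SE 0.16). Exosc3, a cap subunit, read 39.1, 49.0 and 49.6 on the control and 68.6, 64.2 and 41.1 on the transgenic arrays (0.44, SE 0.23). The cap subunit Exosc2 read 89.0, 126 and 108 on the control and 94.8, 71.2 and 74.3 on the transgenic arrays (-0.30, SE 0.23). Only the array of transgenic mouse 1 lay within its control range. The nuclear catalytic subunit Exosc10 read 76.2, 121 and 115 on the control and 79.6, 135 and 74.7 on the transgenic arrays (-0.09, SE 0.28), and its 4 probe sets gave -0.09 to 0.24. Exosc1 read 291, 353 and 263 on the control and 293, 356 and 268 on the transgenic arrays, nearly array for array the same, while its 3 probe sets gave -0.40 to 0.22. Exosc7 (-0.10), Exosc8 (0.14) and Exosc1 (0.02) lay within 1 standard error of 0. Exosc5, at 9.59 to 34.4, and Exosc6, at or under the floor on 5 of 6 arrays, were too dim for the test.

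By the brightest probe set, Pan2 and Exosc4 were thus the 2 members of 45 without overlap between the groups (4.44%), both higher in transgenic mice. Over all genes tested the share was 8.07% (3.86% higher and 4.22% lower). A share below the background says nothing particular about the decay genes. Both genes are dim, and both were lowest on the second array of control mouse 2.

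Genes of nonsense-mediated decay overlapped between the groups, with 3 of 7 higher, 4 lower and a median of -0.04. Smg1, the kinase that phosphorylates UPF1, read 347, 335 and 418 on the control and 398, 402 and 499 on the transgenic arrays (0.23, SE 0.16), and its 3 probe sets above the filter gave 0.08 to 0.23. Smg5, which binds phosphorylated UPF1 and recruits decay enzymes, read 140, 232 and 162 on the control and 133, 104 and 149 on the transgenic arrays (-0.35, SE 0.22), while its dimmer probe set gave 0.20. Upf2, the adaptor to the exon junction complex, read 1899, 2031 and 2160 on the control and 1911, 1675 and 1923 on the transgenic arrays (-0.11, SE 0.16). Smg6 read 94.3, 95.9 and 74.98 on the control and 95.1, 54.5 and 86.1 on the transgenic arrays, and Smg8 read 70.1, 64.3 and 79.5 against 70.2, 94.7 and 85.1. The helicase Upf1 (0.13, SE 0.23), the endonuclease Smg6 (-0.15, SE 0.22) and the SMG1 regulators Smg8 (0.16, SE 0.19) and Smg9 (-0.04, SE 0.18) overlapped too. The fit for the re-LCM tag took the 6 arrays as separate samples. In it Upf1 had the smallest unadjusted p of the members (limma over all genes, tagged minus untagged 0.42, SE 0.16, adjusted p = 0.937). For the tag, 1 of 45 members and 5.14% of all genes had p under 0.05 and 0% were called.

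Probe sets of 1 gene often disagreed, which bounds how far a single reading can be taken. Of the 45 tested genes 25 had more than 1 probe set above the filter. In 9 of these all differences had the same direction, and in 16 they had both. The range between the probe sets of a gene had a median of 0.34 log2 units, more than the median absolute difference of the 45 members (0.14). The range was widest for Exosc4 (0.95), Pan3 (0.74) and Cnot6 (0.71) and narrowest for Xrn2, Cnot3 and Exosc8.

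**Figure D4:**
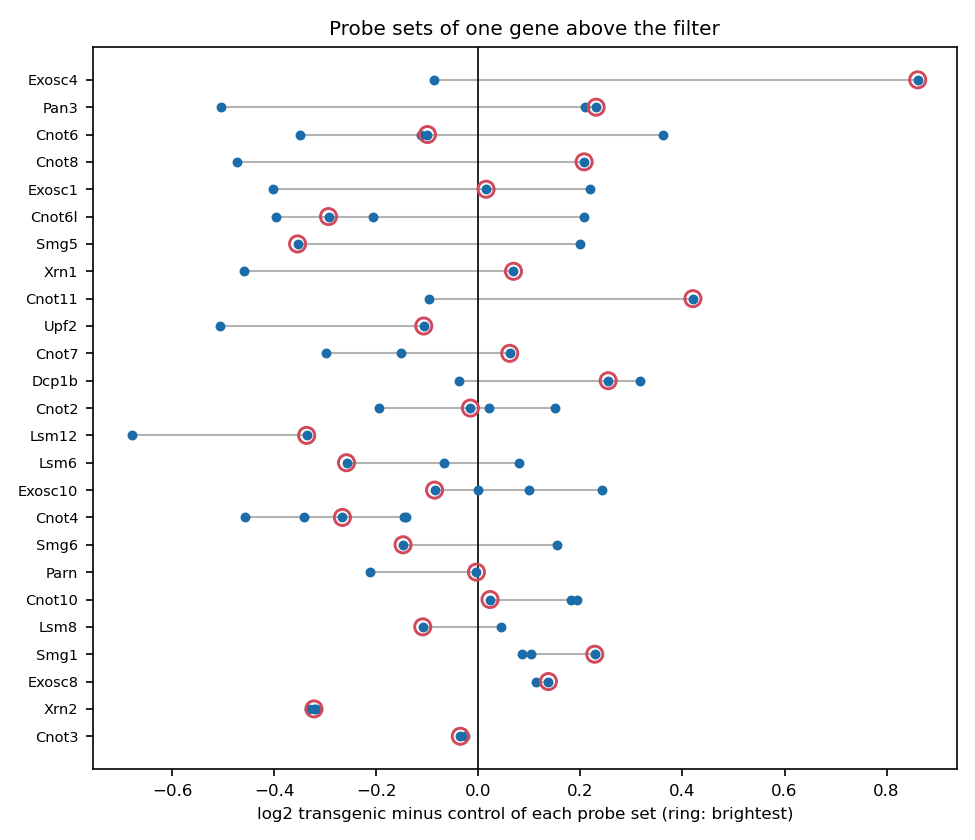
Log2 difference between transgenic and control mice (x axis) of each probe set above the filter for the 25 decay genes with several (y axis, ordered by range); blue points are probe sets, red rings mark the brightest one of a gene and grey lines span the range. In 16 of the 25 genes the points lie on both sides of 0.

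Genes that work with the members were read from 7 lists with 91 entries, of which 82 were measured. With limma 0 were called in either direction, 44 had a higher and 38 a lower mean, and the median was 0.0057. Of 13 poly(A)-binding and deadenylation partners 7 were higher (median 0.03). Pabpc1, the cytoplasmic poly(A)-binding protein, read 3162, 3035 and 3085 on the control and 2740, 2786 and 2918 on the transgenic arrays, with no overlap but a difference of only -0.15 (SE 0.15). Toe1, a nuclear deadenylase, was at 0.24 (SE 0.16). Btg2, which activates the CAF1 deadenylases, did not overlap in the other direction (0.20, SE 0.16).

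Of 15 proteins that bring deadenylases to given mRNAs 6 were higher (median -0.08), with Zfp36l1, which binds AU-rich elements, at -0.62 (SE 0.31) and Khsrp at -0.28 (SE 0.21) and Hnrnpd at -0.22 (SE 0.17). Zfp36l1, which glia also express, read 266 for control mouse 1 and 118 to 175 elsewhere. Of 12 decapping partners 5 were higher (median -0.04), with Nudt16 at -0.23, Patl1, which joins the Lsm ring to decapping, at 0.18 and the cap-binding Eif4e at 0.11. Of 14 exosome nucleases and cofactors 9 were higher (median 0.03). Dis3l, a cytoplasmic catalytic subunit, read 37.1, 36.0 and 46.6 on the control and 48.9, 58.1 and 59.8 on the transgenic arrays (0.46, SE 0.18), without overlap. Dis3l2 was at 0.38 (SE 0.44) and Ttc37 at -0.16 (SE 0.19). Termination and exon junction factors had 7 of 10 higher (median 0.03; Nbas at 0.22, Etf1 at 0.27 and Dhx34 at -0.23), and Argonaute and GW182 proteins 3 of 8 (median -0.04; Ago3 at -0.31, Dicer1 at 0.24 and Tnrc6a at 0.17).

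Transcripts known as substrates of nonsense-mediated decay had 7 of 10 higher means and a median of 0.16. Atf3, a stress-induced transcription factor, led the list, at 34.9, 36.5 and 41.5 on the control and 75.7, 71.3 and 88.0 on the transgenic arrays (1.07, SE 0.16), but was not called either (limma, adjusted p = 0.999). Next by p were Ddit3 (0.27, SE 0.15) and Atf4 (0.24, SE 0.19), 2 other genes of the stress response, neither called. Gadd45b had a larger difference with a wider error (0.37, SE 0.29), and Gadd45g (-0.14), Chac1 (-0.08) and Snhg12 (-0.0098) were the 3 with lower means. Over the 7 lists 4 of 82 genes did not overlap between the groups (Pabpc1, Btg2, Dis3l and Atf3), beside 8.07% of all genes.

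In RNA of many cells fewer cells of a type and less RNA per cell cannot be told apart. All 12 granule cell markers listed passed the filter, among them Prox1 (497 to 651) and Dsp (6366 to 9391). Oligodendrocyte markers were present as well, with 8 of 11 measured, Mbp reaching 7661 on the array of control mouse 1, and a mean level of 0.92 there against -0.56 to 0.07 on the others. Astrocyte (9 of 10) and microglia markers (7 of 9) ran from -0.23 to 0.45 and from -0.30 to 0.30, highest on the same array. By limma 0 markers were called, but most markers of other cells had lower transgenic means: 8 of 8 for oligodendrocytes (median -0.61), 7 of 7 for microglia (-0.33), 8 of 9 for astrocytes (-0.34), 7 of 9 for interneurons (-0.38), 6 of 8 for pyramidal cells (-0.19) and 3 of 5 for vascular cells (-0.28). Granule cell markers were lower in 9 of 12 (-0.11). The mean level of the 45 decay genes stayed between -0.05 and 0.05 on all 6 arrays, and the part of other cells in single genes was not tested.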

How the data were processed

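Total RNA was measured on 6 whole-genome mouse arrays of probe sets. The authors deposited linear probe set intensity values. The values show that each array was scaled to the same 2% trimmed mean, 150 to the nearest whole number over 45101 probe sets. For the summarising program and background correction, the sources used here name none. Precision is limited by the number of mice.

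Control probe sets, 64 in all, did not enter. Intensities under the pooled 25th percentile, 10.1, were raised to it before taking log2. Probe sets with a mean above the median of all (log2 4.92) were kept, with the brightest per gene: 14678 items, 11138 of them named. Arrays of a mouse were averaged, and 2 transgenic were compared with 2 control mice by limma 3.58.1 (lmFit, eBayes) in R 4.3.3 with Benjamini-Hochberg adjustment at 0.05. P-values of this comparison rest on the spread between these few mice and on a spread that limma shares over all genes. The residual degrees of freedom were 2 and the prior ones 2.70. The mice of a group also differ in the number of arrays, and the control mice in the tag. The fit for the re-LCM tag took the 6 arrays as separate samples, with the group as a term. Its p-values therefore count the 2 arrays of a mouse separately, as do those of some alternatives below. Errors are limma standard errors unless given as SD. The second fit, for dim members and extra probe sets, ran on all 45037 probe sets. Scripts were tested on simulated data.

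Members and lists were chosen with earlier results of these data known. Array values were named for the 3 genes of smallest p per role, genes without overlap between groups, genes whose probe sets differ in direction, paralog pairs and, for each pathway list, up to 3 genes of smallest p. The array values of Dcp2, Exosc9, Upf2, Lsm3 and Lsm4 were added after their values were seen. Different mice share the numbers 1 and 2, and mice of the same number did not deviate together (r = 0.03 across genes, which are not independent).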

Additional observations from a re-analysis of the deposited data

How the results depend on the processing

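The comparison was repeated under 25 alternatives, 2 of which were added after the values were seen. No decay gene was called in the 23 that give a test, and over all genes 1 was called with a variance trend and robust variance, and 0 in the others. With the mouse number as a replicate block, 702 of 14678 genes had an unadjusted p under 0.05 instead of 632, no call changed and the median of the decay genes was 0.02. With the 6 arrays and the mouse as a random block, the estimated correlation was -0.54. There 1770 genes, among them 5 decay genes, had an unadjusted p under 0.05. The smallest adjusted p of a decay gene in that limma fit was 0.198. A negative correlation means that arrays of a mouse were less alike than arrays of different mice, so these counts add no support. Across the levels of the decay genes, r was 0.957 for the arrays of control mouse 2, the lowest of all pairs of arrays. It was 0.968 for those of transgenic mouse 2. The median difference of the decay genes was -0.015 with the mean of all probe sets of a gene and -0.055 among arrays without the tag. It was -0.020 without both mice 1, and -0.018 to 0.089 over leave-outs of a mouse or array. The count of decay genes without overlap was 0 with the filter at the 75th percentile, against 6.87% of all genes. It was 28 among re-LCM arrays (62.2%, against 64% of all genes) and 30 among the others (66.7%, against 63.1%). It was 17 without both mice 1 (37.8%, against 27.4%) and 13 without the first arrays of both mice 2 (28.9%, against 30.4%). Over leave-outs it was 6 to 20 (13.3% to 44.4%, against 15.7% to 48.9%), where fewer arrays overlap less often for any gene. The ends of these 2 ranges are not from the same leave-outs, and the shares went either way. They were 26.7% against 17.3% without control mouse 1, and 33.3% against 48.9% without transgenic mouse 2. Pan2 and Exosc4 kept their direction in all 24 alternatives that held them. Leaving out or splitting arrays could not turn it, because all their transgenic arrays were above all control arrays. It is therefore no further support for a difference.

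Of the 20 genes followed, 10 turned direction in at least 1 alternative. With the mean of all probe sets Cnot8 was at -0.13, Pan3 at -0.022 and Xrn1 at -0.19. Parn was at 0.011 with median centring, 0.023 with 6 separate arrays, 0.046 with the mouse as a random block and 0.077 without both mice 1. For Xrn1 these last 3 gave -0.034, -0.12 and -0.24, and for Dcps the random block gave -0.0013. Without both mice 1 Dcp1b was at -0.14 and Dcps at -0.20. Among re-LCM arrays Pan3 was at -0.092 and Xrn1 at -0.083. Among the others Dcp1b was at -0.14, Dcps at -0.28, Exosc3 at -0.26 and Lsm10 at -0.0077. Over leave-outs the ranges were -0.11 to 0.11 for Parn, -0.17 to 0.31 for Xrn1, -0.049 to 0.56 for Dcp1b, -0.030 to 0.70 for Dcps, -0.0034 to 0.42 for Edc4 and -0.014 to 0.34 for Smg8. The cause was not tested.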
